A study of Mus musculus with 6 samples.

Results

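The CCT chaperonin, also called TRiC, is built from 8 different subunits, and the genes described here are those 8: Tcp1, Cct2, Cct3, Cct4, Cct5, Cct6a, Cct7 and Cct8. They were found by gene name among the 55681 non-control probes of an Agilent mouse array. Each gene had 1 probe and each probe 1 spot, so 8 probes stand for the complex, and all 8 passed the filter on dim probes among 17954 tested genes. Signals came from satellite cells, which repair and regrow muscle fibres. They were sorted from 3 C57BL6 mice whose satellite cells lack Rpt3, an ATPase of the proteasome's 19S particle encoded by Psmc4, and from 3 C57BL6 control mice, with 1 array per mouse. The labels give neither the age nor the sex of the mice, nor the promoter or the timing of the deletion, nor the genotype of the controls.

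CCT is a double ring of 8 subunits per ring that takes newly made proteins into its cavity, closes over them with the energy of ATP and releases them folded. Actins and tubulins are its best known clients, and many proteins with WD40 propellers, such as the mitotic activator Cdc20, also need it. Every subunit holds 1 fixed place in the ring, so a working complex needs all of them. In yeast, the subunits that correspond to Tcp1, Cct2, Cct4 and Cct5 form the side of the ring that binds ATP more readily, and those that correspond to Cct3, Cct6a, Cct7 and Cct8 form the other. Prefoldin, a smaller chaperone, hands unfolded actin and tubulin over to CCT. Both machines act beside the proteasome in the cytosol, which removes proteins that fail to fold.

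The probes show what the measurements rest on. Each is a sequence of 60 bases taken from the annotated transcript of its gene, with positions on mouse build mm9 as the array files give them. The 2 genes whose signals did not overlap between knockout and control cells, Cct3 and Cct6a, are shown first, and Cct7 and Cct8, whose probes cross a splice junction, after them.
Cct3, chr3:88124479-88124538, plus strand: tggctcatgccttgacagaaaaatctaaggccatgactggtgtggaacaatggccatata
Cct6a, chr5:130300316-130300375, plus strand: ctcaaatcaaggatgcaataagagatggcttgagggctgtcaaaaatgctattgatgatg
Cct7, chr6:85417773-85418099, plus strand: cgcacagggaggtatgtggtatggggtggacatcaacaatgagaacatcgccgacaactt
Cct8, chr16:87485981-87486129, minus strand: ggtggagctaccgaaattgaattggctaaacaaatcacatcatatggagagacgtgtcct
The probes of Cct7 and Cct8 span 327 and 149 bp of the genome, and the other 6 span 60 bp each. The longest run that any of the 28 pairs of CCT probes shared was 7 bases. The probe of Cct5, on chromosome 15 from 31520643 to 31520702, had a stop codon in every sense frame, while the other 7 had at least 1 frame without a stop.

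Expression was compared on a log2 scale, as log2 of an array's processed signal minus the 75th percentile of that array, and a difference is always knockout minus control. This asks whether cells that lack a proteasome ATPase hold more or less mRNA of the folding machine. The arrays differed from each other beyond the genotype. Slide rows were read from the position numbers in the scan names. By these, slide row 1 held knockout 1 and 2, and slide row 2 held knockout 3 with all 3 controls. Along principal component 1 (29.3% of the variance) knockout 3 scored 70.3 and the other arrays between -23.7 and -4.23. It also had 44.2% of its probes well above background, against 51.7% to 57.9% on the other 5 arrays. For the 8 subunit genes, values without it are therefore given as well. The signal of the targeted gene Psmc4 lay below every control on all 3 knockout arrays, with a log2 difference of -0.92 (SE 0.24) that did not pass over all genes (limma, adjusted p = 0.412). Whether its probe lies in the deleted part is not given in the labels. Among 9 markers of the sorted cell type, the adhesion gene Cdh15 and Myod1, Vcam1, Sdc4, Chrdl2 and Calcr were well above background on all 6 arrays. Pax7 and Itga7 were so on all but knockout 3, and Myf5 on the 3 control arrays and on 0 knockout arrays. Of markers of other cells, all 6 endothelial and all 6 leukocyte markers were well above background on the other 5 arrays, and 5 endothelial and 4 leukocyte markers on knockout 3. All 6 fibro-adipogenic markers were well above background on all 6 arrays. In such bulk samples, fewer cells of a type and less RNA per cell cannot be told apart.

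As a family the CCT genes differed little between the groups. Of the 8 genes, 0 passed in either direction (limma, Benjamini-Hochberg over all genes), beside a background of 0% higher and 0% lower, since 0 of all 17954 genes passed. At an unadjusted p under 0.05, 498 genes were higher and 798 lower, which is 2.77% and 4.44%, and 1 CCT gene was among those higher. Moderation with an intensity trend called 8 genes, of which 0 were CCT genes. The 8 log2 differences ran from -0.07 to 0.67, with a median of 0.12 beside 0.04 over all genes. They were above 0 in 5 genes and below 0 in 3, where 54.8% of all genes were above 0. In 7 of the 8 the 95% interval, taken gene by gene without adjustment, lay within a 2-fold change in both directions, with bounds between -0.60 and 0.87. The share of all genes with such an interval was not counted. The median SE was 0.24 for the 8 genes and 0.28 for all genes. Knockout signals lay above every control in 2 of the 8 genes and below every control in 0, beside 4.87% and 5.95% of all genes. Those 2 were Cct3 and Cct6a.

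**Figure D1:**
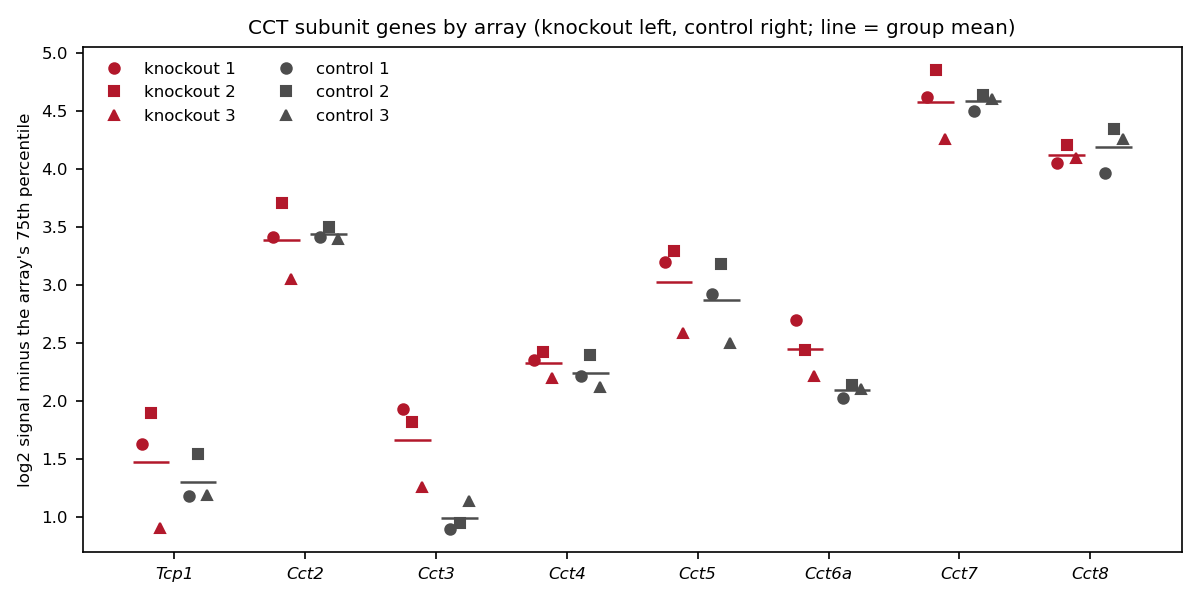
Normalized log2 signal (y axis) of the 8 CCT genes (x axis), with the 3 knockout arrays in red left of the 3 control arrays in grey and a line at each group mean. Knockout and control points are separate for Cct3 and Cct6a and overlap for the other 6, and the knockout 3 triangle is the lowest knockout point in 7 of the 8 genes, the exception being Cct8.

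Cct3, the gamma subunit, showed the largest difference of the 8. Its log2 signal was 1.93, 1.82 and 1.26 in knockout 1, 2 and 3, against 0.90, 0.95 and 1.14 in control 1, 2 and 3. Knockout 3 lay closest to the controls, 0.26 above their mean, and the groups did not overlap. The group means were 1.67 ± 0.36 in knockout and 0.996 ± 0.13 in control cells (SD, n = 3 each), which is 1.59-fold. The log2 difference was 0.67 (SE 0.25, 95% interval 0.09 to 1.25). It did not pass over all genes (limma, unadjusted p = 0.0281, adjusted p = 0.605). An exact 2-sided permutation gave p = 0.1, and 6 arrays in 2 groups of 3 can give no smaller value. A block for slide row leaves only knockout 3 to set against the controls, and there the difference was 0.26 (limma, adjusted p = 0.561). Without knockout 3 it was 0.88 (limma, adjusted p = 0.358). Over the 21 alternatives it lay between 0.26 and 0.88.

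Cct6a encodes the zeta subunit of most tissues, which sits beside the gamma subunit in the ring. Its log2 signal was 2.70, 2.44 and 2.22 in knockout 1, 2 and 3, against 2.03, 2.14 and 2.11 in control 1, 2 and 3. The gap between the groups was narrow, from 2.14 in control 2 to 2.22 in knockout 3. The means were 2.45 ± 0.24 in knockout and 2.09 ± 0.06 in control cells (SD, n = 3 each). The log2 difference of 0.36 (SE 0.22, 95% interval -0.15 to 0.87) did not pass (limma, adjusted p = 0.871). An exact 2-sided permutation gave p = 0.1, the smallest value that 3 against 3 arrays can give. Blocked by slide row the difference was 0.12, without knockout 3 it was 0.48, and over the 21 alternatives it lay between 0.12 and 0.48. Its testis counterpart Cct6b was well above background on 2 of 3 knockout and 2 of 3 control arrays, and so was not tested.

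The other subunits of the same side of the ring showed no such separation. Cct7, the eta subunit, had log2 signals of 4.62, 4.86 and 4.26 in knockout 1, 2 and 3, against 4.50, 4.64 and 4.61 in the controls. Its knockout values lay on both sides of the control range, and the difference was -0.0047 (SE 0.23, 95% interval -0.54 to 0.53; limma, adjusted p = 0.999), or 0.15 without knockout 3. Cct8, the theta subunit, which is abundant in human pluripotent stem cells, had 4.06, 4.21 and 4.10 in knockout cells, against 3.97, 4.35 and 4.26 in controls. All 3 knockout values fell inside the control range, and the difference was -0.07 (SE 0.21, 95% interval -0.57 to 0.42; limma, adjusted p = 0.984), or -0.06 without knockout 3.

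The 4 genes of the side that binds ATP more readily in yeast overlapped between the groups as well. Tcp1, the alpha subunit and the first of the family to be described, had log2 signals of 1.63, 1.90 and 0.91 in knockout 1, 2 and 3, against 1.18, 1.55 and 1.19 in control 1, 2 and 3. Knockout 1 and 2 were above every control and knockout 3 below every control, so the knockout range enclosed that of the controls. The difference was 0.17 (SE 0.30, 95% interval -0.52 to 0.87; limma, adjusted p = 0.984). Blocked by slide row it was -0.40 (limma, adjusted p = 0.458), and without knockout 3 it was 0.46.

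Cct2, the beta subunit, which has also been described as a receptor that delivers protein aggregates to autophagy, followed a similar order. It had 3.42, 3.71 and 3.05 in knockout cells, against 3.42, 3.50 and 3.40 in controls. Knockout 2 was the highest and knockout 3 the lowest of the 6 arrays, and the difference was -0.05 (SE 0.24, 95% interval -0.60 to 0.50; limma, adjusted p = 0.988), or 0.12 without knockout 3. Cct4, the delta subunit, varied least among the knockout arrays after Cct8, with 2.36, 2.42 and 2.20 in knockout cells, against 2.22, 2.40 and 2.12 in controls. Its difference was 0.08 (SE 0.21, 95% interval -0.40 to 0.56; limma, adjusted p = 0.984), or 0.14 without knockout 3. Cct5, the epsilon subunit, had 3.20, 3.30 and 2.59 in knockout cells, against 2.93, 3.19 and 2.50 in controls. It varied by similar amounts in both groups, with SDs of 0.38 in knockout and 0.35 in control cells (n = 3 each), and the difference was 0.16 (SE 0.29, 95% interval -0.51 to 0.82; limma, adjusted p = 0.984), or 0.38 without knockout 3.

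**Figure D2:**
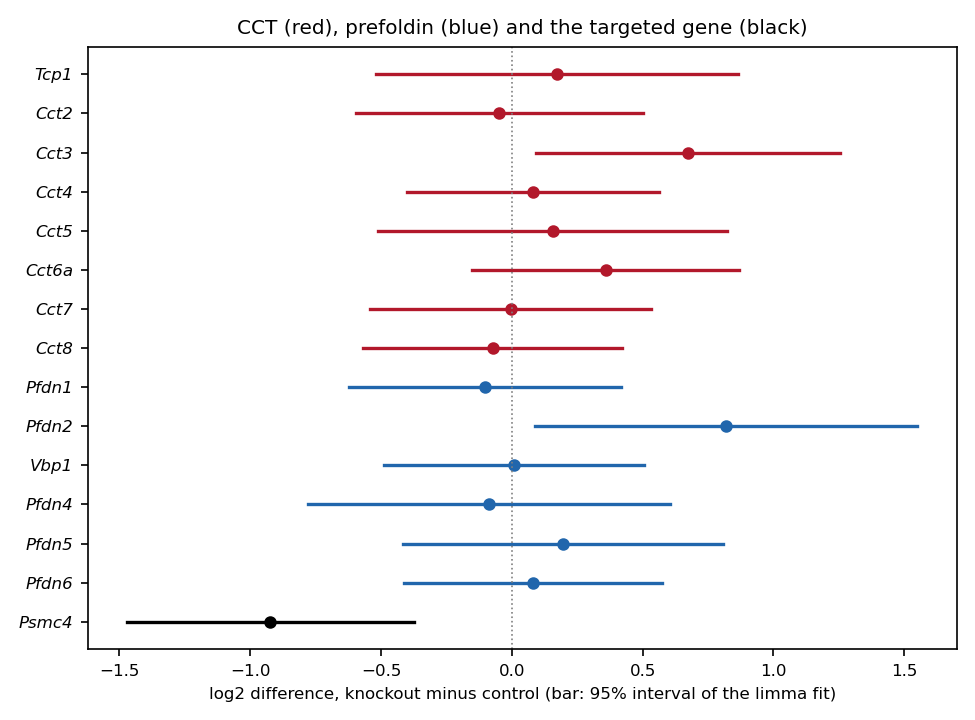
Log2 differences, knockout minus control (x axis), with the 95% interval of the limma fit, for the 8 CCT genes in red, the 6 prefoldin genes in blue and the targeted gene Psmc4 in black. Among the CCT and prefoldin genes, the intervals of Cct3 and Pfdn2 lie above 0 and all the others include it.

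Array by array, the 3 knockout samples did not behave alike. Relative to each gene's own mean over the 6 arrays, the 8 CCT genes averaged 0.19, 0.28 and -0.23 in knockout 1, 2 and 3, against -0.16, 0.04 and -0.13 in control 1, 2 and 3. Knockout 2 was above the control mean in 8 of 8 genes and above every control in 7, beside 54.2% and 28.3% of all genes. Knockout 1 was above the control mean in 6 genes and above every control in 4, beside 49.1% and 25.9% of all genes. Knockout 3 was above the control mean in 2 genes, Cct3 and Cct6a, and above every control in the same 2. The shares of all genes on that array were 50.4% and 33.8%. Knockout 3 was below every control in 3 of the 8, Tcp1, Cct2 and Cct7, beside 31.5% of all genes, so that share lies near the background. Without knockout 3 the median log2 difference of the 8 genes was 0.27, beside 0.02 over all genes, and 7 were above 0. Blocked by slide row the median was -0.19, beside 0.0058 over all genes, and 2 were above 0. The median of the 8 was 0.07 without knockout 1, -0.0084 without knockout 2, 0.09 without control 1, 0.23 without control 2 and 0.01 without control 3. Over all genes these medians lay between 0.02 and 0.04.

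Markers of other cells followed part of this order. The 3 tested neutrophil markers out of 6 averaged 1.33, 2.01 and -1.51 in knockout 1, 2 and 3, against -0.74, -0.36 and -0.73 in the controls. Of the 6, all were well above background on knockout 1 and 2, 1 on knockout 3 and 4 to 5 on the control arrays. The defining marker S100a8 was not well above background on knockout 3. The 6 macrophage and leukocyte markers averaged 0.30, 0.20 and -0.28 in knockout 1, 2 and 3, against 0.03, -0.02 and -0.22 in the controls. Single genes did not share this order. Among the knockout arrays, Tyrobp (1.26, 0.50 and -2.01) and Adgre1 (-0.76, -1.49 and -3.40) were lowest on knockout 3. The others, Ptprc, Cd68, Csf1r and Itgam, were highest on knockout 3 among the knockout arrays. The 2 tested muscle fibre markers out of 6 averaged 0.32, 1.13 and -1.17 in knockout 1, 2 and 3, against 0.40, -0.35 and -0.34 in the controls, and the fibre marker Ckm was well above background on 0 arrays. The 6 endothelial markers ranged from -0.66 to 0.69 over the knockout arrays and from -0.84 to 0.89 over the controls, and the 6 fibro-adipogenic markers from -0.44 to 0.19 and from -0.26 to 0.31. The 3 tested red blood cell markers ranged from 0.17 to 0.51 over the knockout arrays and from -0.70 to 0.10 over the controls, so these groups did not overlap. The 9 satellite cell markers ranged from -0.41 to -0.05 over the knockout arrays and from -0.26 to 0.47 over the controls. Gene by gene, 5 of these 9 had a log2 difference above 0 and 4 below, with a median of 0.0046. The lowest were Myf5 (-1.97), which passed the filter on dim probes through the control arrays alone, Calcr (-1.04) and Chrdl2 (-0.70). The part of these cells, or of the lower share of detected probes on knockout 3, in the CCT signals was not tested.

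**Figure D3:**
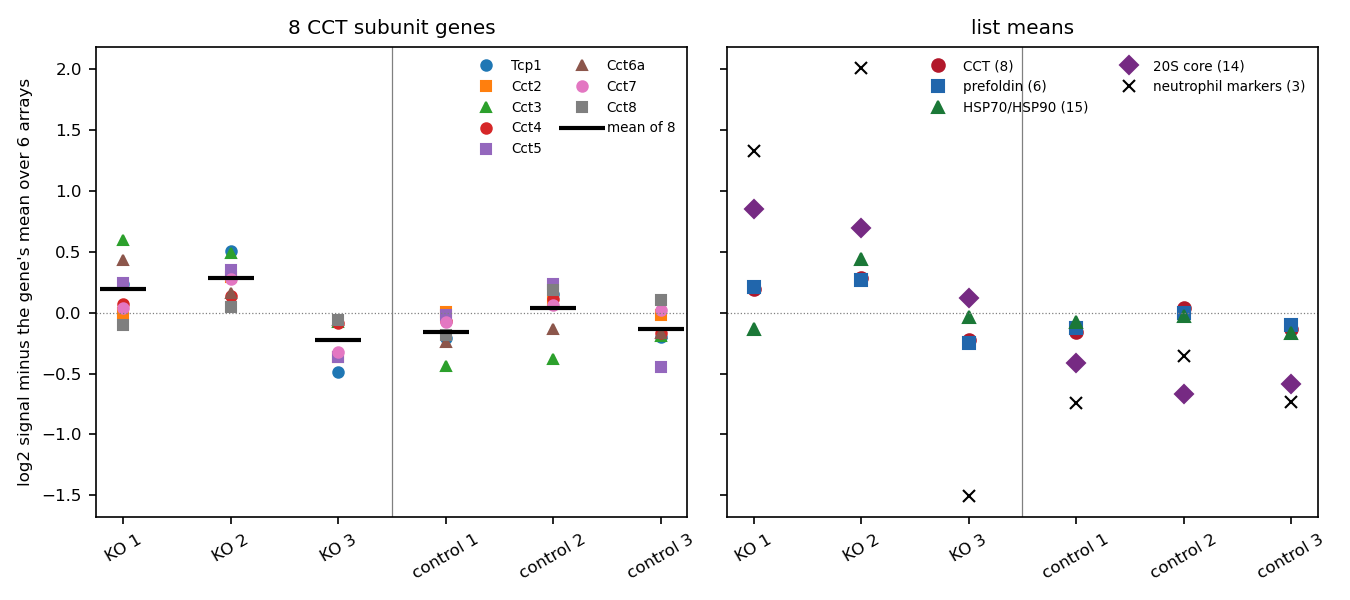
Log2 signal minus the gene's mean over the 6 arrays (y axis) for the 3 knockout arrays (KO) left of the 3 control arrays (x axis), for each CCT gene with the mean of the 8 as a bar on the left, and as list means on the right with the number of genes in brackets. All 8 CCT genes lie above 0 on knockout 2 and below 0 on knockout 3, and the 20S core means of all 3 knockout arrays lie above those of the controls.

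A comparison of each subunit with its 7 partners on the same array removes what all 8 genes share. Cct3 stood 0.47, 0.23 and 0.17 above the mean of the other 7 in knockout 1, 2 and 3, where the controls had -0.32, -0.48 and -0.07, each value being centred on the gene's own mean. It was thus higher relative to its partners in all 3 knockout arrays than in any control. Its signals were already separate between the groups before this step, so this in part restates the same values. Cct6a did not separate on this scale, with 0.27, -0.13 and 0.19 in knockout cells and -0.10, -0.20 and -0.04 in controls. Cct2 and Cct7 lay lower relative to their partners in every knockout array than in any control, by 0.24 and 0.19 on average. Each value is the gene's own minus the mean of the other 7, so a subunit that is high lowers the other 7 by construction. How often other genes would separate on such a scale was not counted.

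The CCT genes also differed in how far they shared 1 pattern over the arrays. Pearson's r between pairs of them over the 6 arrays had a median of 0.55 and ran from -0.16 for Cct6a with Cct8 to 0.97 for Cct2 with Cct7. Cct3 with Cct6a gave 0.95 and Cct4 with Cct5 gave 0.95. Against the mean of the 8, to which each gene contributes, Tcp1 had an r of 0.98 and Cct8 one of 0.22. These are descriptions over 6 arrays of 2 genotypes that share a slide. Among the 17944 other features with values on all arrays, 123 had an r above 0.95 with that mean. Of the 5 with the highest r, from 0.992 to 0.997, Cacng7, a calcium channel subunit gene with a log2 difference of 0.27 (SE 0.27), was the only one with a gene symbol.

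Prefoldin, which delivers clients to CCT, gave a similar picture. Of its 6 subunit genes 0 passed in either direction, 4 were above 0 and 2 below, and the median log2 difference was 0.04. On array means the 6 genes stood at 0.21, 0.27 and -0.25 in knockout 1, 2 and 3, against -0.13, -0.0020 and -0.10 in the controls, close to the CCT means on every array. Pfdn2 had log2 signals of 2.34, 2.54 and 1.50 in knockout cells, against 1.02, 1.41 and 1.49 in controls. Its groups did not overlap, by a margin of 1.50 against 1.49, and the difference was 0.82 (SE 0.32; limma, unadjusted p = 0.0324, adjusted p = 0.619) 0.19 when blocked by slide row and 1.13 without knockout 3. The other 5 differed by -0.10 for Pfdn1, 0.0077 for Vbp1, -0.09 for Pfdn4, 0.20 for Pfdn5 and 0.08 for Pfdn6, and their groups overlapped.

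The cofactors that bind CCT differed by less than their error. Of the 4 genes 0 passed, with 2 above and 2 below 0 and a median of 0.03. The phosducin-like gene Pdcl, whose product helps CCT fold G protein beta subunits, differed by -0.17 (SE 0.23) and Pdcl3 by -0.09 (SE 0.28). Txndc9 differed by 0.14 (SE 0.25) and Pdcd5 by 0.19 (SE 0.29). The separate chaperonin of mitochondria, made of Hspd1 and Hspe1, had differences of 0.12 (SE 0.31) and 0.31 (SE 0.26), and neither passed. The chaperonin-like genes of the BBS complex, Mkks, Bbs10 and Bbs12, were not well above background on all 3 arrays of either group and were not tested.

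Genes of the clients gave values mostly above 0 for tubulins and near 0 for actins. Of 13 tested tubulin genes out of 16, 0 passed, with a median log2 difference of 0.24. There were 11 above 0 and 2 below, where 54.8% of all genes were above 0. In all knockout arrays 5 of the 13 were above every control, beside 4.87% of all genes. Tuba4a, an alpha tubulin gene, had log2 signals of 5.11, 5.24 and 4.91 in knockout cells, against 4.45, 4.23 and 4.31 in controls, a difference of 0.76 (SE 0.21; limma, unadjusted p = 0.00723, adjusted p = 0.449). Tuba1c, with 5.29, 5.41 and 5.16 in knockout cells against 4.82, 4.66 and 4.85 in controls, differed by 0.51 (SE 0.21; limma, adjusted p = 0.650). Tubb3 and Tubg1 had the smallest p among those below 0, at -0.37 (SE 0.36) and -0.06 (SE 0.22). Tubulin genes are closely alike, and cross-hybridization between their probes cannot be told apart from signal of the named gene. The 5 tested actin genes had a median of -0.04, with 2 above 0, Actb (0.06, SE 0.24) and Acta2 (0.03, SE 0.23), and 3 below, led by Acta1 (-0.18, SE 0.25) and Actg2 (-0.13, SE 0.35).

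Other clients and helpers did not pass either. Of 10 tested client genes, most of them of WD40 proteins, 0 passed, 4 were above 0 and 6 below, with a median of -0.04. Cdc20, the activator of mitotic protein destruction, had the lowest, with log2 signals of -1.61, -2.64 and -1.60 in knockout cells, against -1.08, -0.66 and -1.31 in controls. It was well above background on 1 of 3 knockout and 3 of 3 control arrays. It thus passed the filter on dim probes through the controls alone, which favours a lower knockout value. The log2 difference was -0.93 (SE 0.34) and did not pass (limma, unadjusted p = 0.0269, adjusted p = 0.598). It was -0.25 (SE 0.15) with normexp background correction and -0.58 without knockout 2. Vhl differed by -0.37 (SE 0.37), and on the other side the telomerase factor gene Wrap53 by 0.50 (SE 0.25) and Stat3 by 0.33 (SE 0.25). The 5 tested cofactors that assemble tubulin dimers after CCT had a median of 0.03 and 0 that passed. Tbcc differed by -0.95 (SE 0.58), Tbca by -0.07 (SE 0.29), Arl2 by 0.41 (SE 0.30) and Tbcd by 0.28 (SE 0.25). Tbcc was well above background on 2 of 3 knockout and 3 of 3 control arrays, so it too passed the filter through the controls alone. With 1 array left out, Tbcc lay between -1.49 and -0.34, Arl2 between 0.17 and 0.63 and Tbcd between 0.09 and 0.39.

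Set beside other complexes of protein quality control, the CCT genes had differences below those of nearly all genes of the 20S proteasome core, the barrel that cuts proteins up. The 14 genes of the core had a median log2 difference of 1.05, and 0 passed over all genes. Of them, 14 were above 0 and 13 above every control in all knockout arrays, beside 54.8% and 4.87% of all genes. Of the 14, 13 had a larger difference than any CCT gene, and Psma3 (0.42, SE 0.26) lay below that of Cct3. The core stood highest in Psmb3 (1.64, SE 0.28) and Psma1 (1.57, SE 0.28). On knockout 3 the core averaged 0.12 above its mean over arrays, where the CCT genes were at -0.23. The 15 tested genes of the cytosolic HSP70 and HSP90 machinery, which passes some clients on to CCT, had a median of 0.20. Of these 15 genes, 13 were above 0, 2 below and 0 passed, where 54.8% of all genes were above 0. On array means they stood at -0.13, 0.44 and -0.04 in knockout 1, 2 and 3, against -0.08, -0.03 and -0.17 in the controls. Only knockout 2 lay above every control by these means by a wide margin, and knockout 1 lay inside the control range. Ahsa1 (0.49, SE 0.31) and Ptges3 (0.37, SE 0.21) had the smallest p above 0, and Hspa4 (-0.17, SE 0.21) and Hsph1 (-0.07, SE 0.32) those below. Whether the lists differ from each other was not tested.

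The upstream sequences of Cct3 and Cct6a are given because these were the 2 genes whose groups did not overlap. They are the 250 bases before the first listed start of each gene, from RefSeq on GRCm38.p6, with capitals at each CCAAT box on either strand, which reads ATTGG on the reverse one.
Cct3, chr3:88296885-88297134, plus strand: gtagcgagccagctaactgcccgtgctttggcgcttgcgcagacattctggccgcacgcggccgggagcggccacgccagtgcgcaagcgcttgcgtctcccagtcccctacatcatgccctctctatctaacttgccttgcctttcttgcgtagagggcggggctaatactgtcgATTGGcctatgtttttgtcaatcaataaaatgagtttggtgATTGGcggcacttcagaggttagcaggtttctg
Cct6a, chr5:129787106-129787355, plus strand: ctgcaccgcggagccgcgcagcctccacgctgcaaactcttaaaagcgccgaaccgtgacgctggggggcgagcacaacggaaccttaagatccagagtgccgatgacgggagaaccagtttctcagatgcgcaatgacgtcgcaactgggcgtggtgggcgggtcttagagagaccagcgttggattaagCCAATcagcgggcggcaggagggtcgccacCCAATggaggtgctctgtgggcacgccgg
Of the 7 CCT genes matched in the promoter table, 4 held CCAAT, namely Tcp1, Cct3, Cct6a and Cct7, beside 34.5% of 27025 promoters of the same length and 6 of 11 matched genes of the 20S core. The heat shock element letters GAANNTTC were found in 0 of the 7 and TTCNNGAA in Cct5, beside 6.78% and 7.10% of all promoters, and each of these reads the same on both strands. The antioxidant element letters TGACNNNGC were found in Tcp1 and Cct6a and in 2 of the 11 core genes, beside 10.1% of all promoters. The ETS letters CCGGAAG were found in Cct2 and Cct8, beside 7.05%. All were searched on both strands. Cct3 shared its CCAAT letters with Cct7, whose signals overlapped between the groups. A match in letters is not a measured site.

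**Figure D4:**
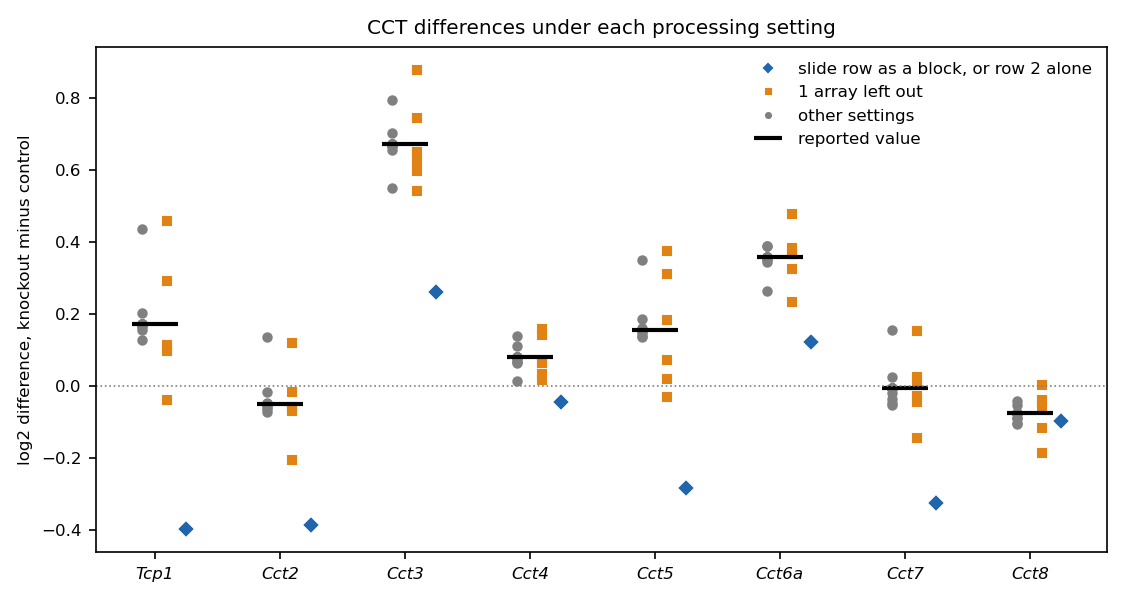
Log2 difference, knockout minus control (y axis), of each CCT gene (x axis) as reported (black bar), with 1 array left out (orange), with slide row as a block or in slide row 2 alone (blue) and under the other settings (grey). The points of Cct3 lie between 0.26 and 0.88 and those of Cct6a between 0.12 and 0.48, and the blue points, which rest on knockout 3 alone, lie lowest for 7 of the 8 genes, Cct8 being the exception.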

How the data were processed

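Satellite cell RNA of 6 mice was hybridized to 1-colour (Cy3) Agilent arrays after whole-transcriptome amplification, per the labels' protocols. The deposited scanner files hold linear intensity. Agilent Feature Extraction 10.7.1.1, per the file headers (9.5.1.1 per the submitters' processing notes), had subtracted background and removed spatial trends on each array, and arrays had not been scaled to each other. A value table from the authors also holds linear intensity. Its columns share their quantiles (median 17.7), and it served as an alternative.

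Processed signals were divided by their 75th percentile on the same array and taken to log2. Control and outlier-flagged spots were left out, and 0 spots were saturated. Testing was limited to probes well above background on every array of at least 1 group, and the brightest probe stood for a gene. Current symbols came by accession from GRCm38.p6, for 27235 of 55681 probes, and 2744 probes without a gene name were not tested. Tests used lmFit and eBayes (limma 3.58.1, R 4.3.3), with Benjamini-Hochberg adjustment and a threshold of 0.05, and single genes also by exact 2-sided permutation. The SE is the moderated one. The number of arrays limits the precision, and the median SE was 0.28. The fit was tested on simulated data. Deviations of same-numbered samples correlated only weakly (0.07, -0.02 and 0.09). Samples with different numbers gave -0.09 to 0.04, and the numbers were not taken as pairs. Whether mice shared a litter or sorting day is not given in the labels.

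Named genes were the 8 subunits, Psmc4, each tested gene of the prefoldin, cofactor and mitochondrial chaperonin lists, from each other list 2 genes per direction by smallest p, and the 5 features most like the subunit mean; Psma3 (chosen after its value was seen), genes not tested and marker genes fall outside this rule. Alternatives changed the background correction, scaling, filter, probe choice, value source, moderation, array weights and blocks, and left out each array. The members and lists were chosen with earlier results of these data known. Lists are described by counts and medians, with no test.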

Additional observations from a re-analysis of the deposited data

How the results depend on the processing

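Of the 8 CCT genes, 0 passed under any of the 21 alternatives. Of 168 values of the 8 genes under alternatives, 16 had the opposite sign. With slide row as a block or in slide row 2 alone, both resting on knockout 3 against the controls, the median of the CCT genes was -0.19, and the signs turned for Tcp1 (-0.40), Cct4 (-0.045), Cct5 (-0.28), Vbp1 (-0.17), Pfdn5 (-0.31), Pfdn6 (-0.044), Pdcd5 (-0.11), Txndc9 (-0.12), Hspd1 (-0.19), Actb (-0.29), Arl2 (-0.026), Cacng7 (-0.24) and Tubb3 (0.36). With array weights they turned for Cct2 (0.14), Cct7 (0.16), Pdcl3 (0.20), Pfdn4 (0.21), Hsph1 (0.15), Tbca (0.13) and Tubg1 (0.043). Median scaling turned Cct7 (0.027). The deposited table turned Acta2 (-0.021), Actb (-0.0093) and Vbp1 (-0.014), quantile normalization Acta2 (-0.028) and Vbp1 (-0.0097), normexp Acta2 (-0.0084) and Vbp1 (-0.058), and the percentile over detected probes Vbp1 (-0.0075). With 1 array left out, the median of the CCT genes lay between -0.0084 and 0.27, and of the prefoldin genes between -0.02 and 0.16. Ranges that crossed 0 were -0.038 to 0.46 for Tcp1, -0.20 to 0.12 for Cct2, -0.029 to 0.38 for Cct5, -0.14 to 0.15 for Cct7 and -0.19 to 0.0028 for Cct8. So did -0.24 to 0.031 for Pfdn1, -0.31 to 0.18 for Pfdn4, -0.074 to 0.10 for Vbp1, -0.34 to 0.094 for Pdcl3, -0.047 to 0.27 for Txndc9, -0.016 to 0.38 for Pdcd5 and -0.20 to 0.29 for Hspd1. The same held for Acta2 (-0.13 to 0.13), Actb (-0.10 to 0.23), Actg2 (-0.50 to 0.071), Hsph1 (-0.35 to 0.24), Tbca (-0.25 to 0.23) and Tubg1 (-0.15 to 0.040), where another probe could stand for a gene with several. On 1 side of 0, but moved by over 1.5 times, were Cct4 (0.02 to 0.16), Cct6a (0.23 to 0.48), Pfdn5 (0.06 to 0.45), Pfdn6 (0.02 to 0.18), Pdcl (-0.31 to -0.03), Hspe1 (0.12 to 0.44), Acta1 (-0.34 to -0.06), Tubb3 (-0.73 to -0.02), Vhl (-0.66 to -0.06), Stat3 (0.21 to 0.52), Ahsa1 (0.17 to 0.67), Hspa4 (-0.23 to -0.09), Cacng7 (0.10 to 0.53), Cdc20 (-1.11 to -0.58), Tbcc (-1.49 to -0.34), Arl2 and Tbcd. None of these values passed, and their causes were not tested. Over all genes, 1 was called with quantile normalization, 1 in the deposited table, 2 with median scaling, 8 with an intensity trend and 9 with array weights, against 0 as reported. Of the 8 CCT and 36 other genes refitted under the alternatives, which leave out the markers and Psma3, only Psmb3 passed in any, at 1.64 with an intensity trend (limma, adjusted p = 0.0480). With the replicate number as a block, 0 genes passed, the CCT median was 0.12 and Cct3 differed by 0.67 (limma, adjusted p = 0.673).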
